A study of Mus musculus with 52 samples.

Results

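Promoter cohesin peaks without CTCF are sites where chromatin immunoprecipitation followed by sequencing (ChIP-seq) listed a peak of the cohesin subunit Rad21 close to the start of a gene, but listed no peak of the insulator protein CTCF at the same place. The peaks described here are those of the wild-type (wt) Rad21 list on chromosomes 1 to 19 whose midpoint lay within 1 kb of the 5′ end of a protein-coding gene (GENCODE M21) and which did not overlap a wt CTCF peak by 1 bp. There were 5073 such peaks among 65769 autosomal Rad21 wt peaks, or 7.71% of them, and they are called CTCF-free promoter peaks below. The members were chosen by measured values, namely the wt Rad21 and wt CTCF lists, so that their position near genes, their width and score in wt and their lack of CTCF in wt are given as descriptions. Of the other autosomal Rad21 wt peaks, 4224 lay near a gene 5′ end and overlapped CTCF (promoter peaks with CTCF), 22189 were distal without CTCF and 34283 were distal with CTCF.

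The study profiled clonal female mouse embryonic fibroblasts (MEFs) from a cross of M.m.domesticus FVB and M.m.Castaneus mice, derived from mid-gestation F2 embryos. The wt clone was Wt2A1, the germline mutant (mut) was the clone Mut5A6, which carries the MommeD1 point mutation of SmcHD1, and the somatic knockout (somKO) was made with CRISPR and comprised the clones A3-3 and D4. All cells shared the F2 background, in which the autosomes are a mosaic of both strains, and the knockout was derived from a different wt clone (wt1A2), so that in both comparisons genotype and clone cannot be told apart. The Rad21 lists merge 2 libraries for wt, 2 for mut and 4 for somKO, the CTCF lists merge 3, 3 and 4, and the SmcHD1 lists merge 3 for wt and 3 for mut.

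Cohesin is a ring of Smc1, Smc3, Rad21 and a Stag subunit that is loaded onto DNA by Nipbl and Mau2, extrudes chromatin loops and is released by Wapl. CTCF bound to its motif halts the moving ring, and most sharp cohesin peaks of mammalian genomes lie at CTCF sites. Cohesin is also found at active promoters and enhancers, where loading factors and the transcription machinery gather. SmcHD1 is an atypical member of the same protein superfamily that is known for its part in silencing the inactive X chromosome.

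A high density of CpG dinucleotides at the gene 5′ end was the sequence feature that most of these peaks shared. The 300 bp at the midpoint of 5 peaks are shown on the strand of the gene (GRCm38/mm10), with every CpG in capitals, to let the dense and the sparse kind be compared. None of these 5 windows holds the gene 5′ end itself. Ssbp2, which encodes a single-stranded DNA-binding cofactor of LIM-domain complexes, had the highest wt score of all CTCF-free promoter peaks, and Sertad2, a transcriptional coregulator gene, was among the 5 highest. Phf20l1, a reader of methylated lysines, ranked between them. Tnc, which encodes the matrix glycoprotein tenascin C, had one of the widest peaks and overlapped SmcHD1 in wt. Igdcc4, a cell-surface immunoglobulin superfamily gene, had one of the highest-scoring peaks that were lost in both mut and somKO.
Ssbp2, chr13:91460528-91460827, + strand: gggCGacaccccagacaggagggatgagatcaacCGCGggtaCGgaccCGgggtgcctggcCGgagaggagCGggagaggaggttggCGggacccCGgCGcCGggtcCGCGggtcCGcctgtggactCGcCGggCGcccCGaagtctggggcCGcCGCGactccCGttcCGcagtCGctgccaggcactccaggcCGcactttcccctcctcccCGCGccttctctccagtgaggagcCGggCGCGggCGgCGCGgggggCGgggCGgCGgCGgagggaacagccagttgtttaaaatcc
Sertad2, chr11:20543367-20543666, + strand: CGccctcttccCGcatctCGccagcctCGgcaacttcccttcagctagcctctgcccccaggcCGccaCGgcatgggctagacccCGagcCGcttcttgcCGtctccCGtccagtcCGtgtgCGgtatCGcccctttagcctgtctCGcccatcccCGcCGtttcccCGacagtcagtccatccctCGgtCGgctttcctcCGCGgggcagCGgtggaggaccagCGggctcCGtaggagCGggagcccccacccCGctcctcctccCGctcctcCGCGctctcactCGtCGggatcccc
Phf20l1, chr15:66578043-66578342, + strand: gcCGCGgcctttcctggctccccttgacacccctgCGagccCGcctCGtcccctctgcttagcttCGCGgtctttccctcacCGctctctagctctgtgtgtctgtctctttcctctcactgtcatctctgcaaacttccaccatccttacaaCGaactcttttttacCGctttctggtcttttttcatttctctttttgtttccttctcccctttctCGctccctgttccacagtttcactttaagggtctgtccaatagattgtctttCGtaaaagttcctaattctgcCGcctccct
Tnc, chr4:64046153-64046452, - strand: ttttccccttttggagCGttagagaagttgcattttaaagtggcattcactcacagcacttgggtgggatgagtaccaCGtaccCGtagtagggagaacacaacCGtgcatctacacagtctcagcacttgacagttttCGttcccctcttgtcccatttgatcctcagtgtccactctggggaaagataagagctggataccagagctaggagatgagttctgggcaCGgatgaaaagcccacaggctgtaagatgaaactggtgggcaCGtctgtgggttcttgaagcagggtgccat
Igdcc4, chr9:65101018-65101317, + strand: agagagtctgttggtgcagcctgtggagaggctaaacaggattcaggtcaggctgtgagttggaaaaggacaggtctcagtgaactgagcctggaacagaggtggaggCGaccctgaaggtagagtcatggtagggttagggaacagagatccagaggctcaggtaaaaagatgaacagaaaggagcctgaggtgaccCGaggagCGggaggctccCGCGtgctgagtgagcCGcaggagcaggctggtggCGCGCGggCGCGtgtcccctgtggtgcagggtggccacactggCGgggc
The Ssbp2 window held 37 CpGs, the Sertad2 window 31 and the Phf20l1 window 13. The Igdcc4 window held 12 and the Tnc window 7. Relative to their C and G content, as explained below, the Phf20l1 and Igdcc4 windows differed more, with ratios of 0.832 and 0.492. By the annotation, the midpoints at Ssbp2, Phf20l1 and Tnc lay in an intron, that at Sertad2 in an untranslated exon, and that at Igdcc4 318 bp upstream of the gene.

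CpG content is given as the observed over the expected number of CpG, where the expected number follows from the C and G content of the window. In 300 bp at the gene 5′ end, the median of this ratio was 0.847 over the 5265 genes with a CTCF-free promoter peak. It was 0.816 over the 4154 genes with only a promoter peak with CTCF, and 0.283 over the 11388 genes with no promoter Rad21 peak in wt. A ratio over 0.6 was found at 83.9% of genes with a CTCF-free promoter peak and at 50.3% of all 20807 protein-coding genes. Read the other way, 243 of 6465 genes with a ratio under 0.3 had such a peak (3.76%), and 3113 of 6741 genes with a ratio over 0.8 did (46.2%).

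**Figure D1:**
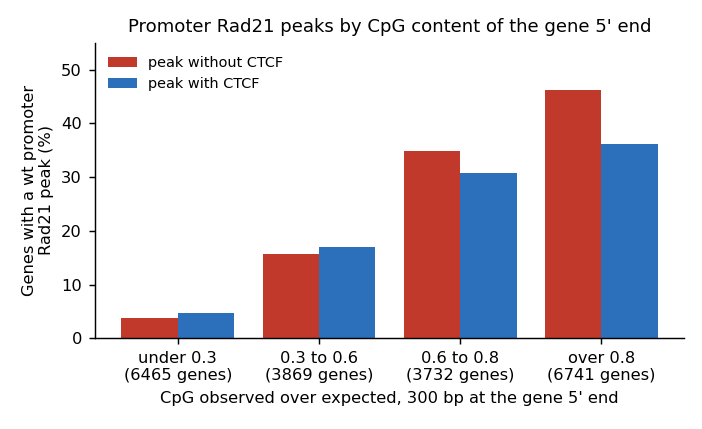
Share of protein-coding genes (%) with a wt promoter Rad21 peak without CTCF (red) or with CTCF (blue), in 4 classes of CpG observed over expected at the gene 5′ end. The share without CTCF was 3.76% in the lowest class and 46.2% in the highest, and the share with CTCF was 4.75% and 36.1%.

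Short motifs were searched on both strands of the same 300 bp 5′ end windows, as letters only. The GC box (GGGCGG) stood in 69.4% of windows of genes with a CTCF-free promoter peak and in 46.3% of those of all protein-coding genes. Genes with only a promoter peak with CTCF stood close to the former, at 65.6%. The ETS motif (CCGGAAG) stood in 1105 of 5265 windows against 11.7% of all and 17.2% of those of genes with only a promoter peak with CTCF. For the NRF1 motif (GCATGCGC) the 3 shares were 6.29%, 3.31% and 4.24%, for the YY1 motif (AAGATGGC) 6.53%, 3.55% and 4.60%, and for the E-box (CACGTG) 11.1%, 7.52% and 8.43%. The TATA box (TATAAA) was found in 4.56% of windows of genes with a CTCF-free promoter peak, in 10.7% of all and in 5.03% of those of genes with only a promoter peak with CTCF. Several of these motifs contain a CpG or are rich in G and C, so that their shares and the CpG content are not separate observations.

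At the peak midpoints, the CTCF consensus was found in 13 of 5073 windows (0.256%), beside 0.482% for distal peaks without CTCF. It was found in 5.07% for promoter peaks with CTCF and in 11.8% for distal peaks with CTCF. The classes were set by the wt CTCF peaks, so that this contrast is bound up with the rule. The AP-1 motif (TGANTCA) was found in 5.09% of the windows of CTCF-free promoter peaks and in 4.45% of those of promoter peaks with CTCF. Of the windows of distal peaks without CTCF, 28.5% held it. The median GC content of the midpoint windows was 62.0% for CTCF-free promoter peaks, 62.3% for promoter peaks with CTCF and 45.7% for distal peaks without CTCF. A match of letters is a description and shows no binding.

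The CTCF-free promoter peaks belonged to 5265 of the 20807 protein-coding genes of the autosomes (25.3%). Of the peaks, 4344 had 1 gene 5′ end within 1 kb, 702 had 2, 26 had 3 and 1 had 4. Of the genes, 393 also had a promoter peak with CTCF. Genes whose 5′ end lay within 1 kb of a 5′ end on the other strand, the arrangement of bidirectional promoters, had a CTCF-free promoter peak in 1188 of 2321 cases (51.2%, 95% Wilson interval 49.2 to 53.2). Genes without such a neighbour had one in 4077 of 18486 cases (22.1%, 21.5 to 22.7). Both genes of a pair can share 1 peak, so that this share counts some peaks more than once. For promoter peaks with CTCF, the corresponding shares were 32.9% and 20.5%.

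The peaks lay mostly downstream of the gene 5′ end. The midpoint was downstream for 4007 peaks (79.0%, 77.8 to 80.1), with a median of 289 bp downstream and quartiles of 60.0 and 502 bp downstream. Against the nearest 5′ end of any protein-coding transcript, rather than the outermost 5′ end of the gene, the median was 195 bp downstream and 74.0% of midpoints were downstream. Promoter peaks with CTCF were downstream in 67.9% of cases, with a median of 202 bp. By the annotation, 49.9% of the CTCF-free midpoints lay in an intron, 21.1% in an untranslated exon, 13.3% in a coding exon and 15.7% outside protein-coding genes.

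**Figure D2:**
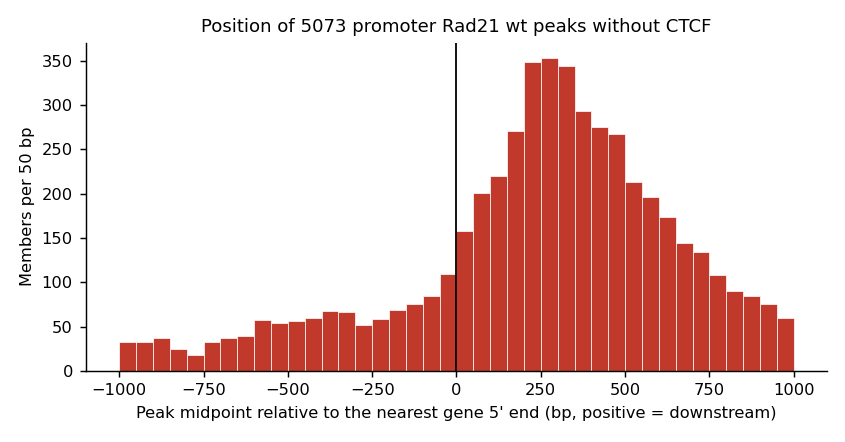
Number of CTCF-free promoter peaks per 50 bp, by the position of the peak midpoint relative to the nearest gene 5′ end (bp, positive values downstream). The mass of the distribution lay downstream of the 5′ end, with a median of 289 bp.

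In the wt list these were weak to middling peaks. The deposited score ranks peaks within a list, and the median percentile was 33.9 (quartiles 19.9 and 49.0), beside 64.9 for promoter peaks with CTCF, 23.4 for distal peaks without CTCF and 71.0 for distal peaks with CTCF. None was among the 5000 highest-ranked peaks, 2 were among the highest 10000 and 113 among the highest 20000. The median width was 693 bp, with a range from 226 to 6387 bp, beside 1175, 412 and 704 bp for the same 3 classes. The nearest wt CTCF peak was a median of 6365 bp away, and 753 peaks (14.8%) had one within 1 kb.

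The 10 highest-scoring peaks held percentiles from 79.1 to 87.4 in the wt list, and each was listed again in both other genotypes. The somKO list is longer than the wt list, and added weak peaks raise the percentile of every other peak of a list, so that percentiles are compared within a list and the 3 values of a peak are given side by side only. The peak at Ssbp2 held percentile 87.4 of the wt, 82.7 of the mut and 88.9 of the somKO list. The peak at Tead1, a DNA-binding partner of the Hippo pathway, was at 85.3, 83.7 and 83.3. Phf20l1 was at 85.1, 87.8 and 81.0, and Rbms1, an RNA-binding protein gene, was at 84.9, 84.3 and 82.9. These 4 peaks stood at percentile 81.0 or above in all 3 lists. Sertad2 was at 81.6, 78.4 and 83.6, and Lpp, which encodes a LIM protein of focal adhesions, was at 80.2, 78.0 and 79.0. A peak shared by the ribokinase gene Rbks and Babam2, a subunit of a BRCA1 complex, was at 79.9, 73.2 and 86.8. The remaining 3 were Dusp6, the phosphatase of ERK (79.7, 84.8 and 86.3), Bmper, a regulator of BMP signals (79.1, 82.4 and 81.4), and the teneurin gene Tenm3 (79.1, 77.3 and 87.4). Ssbp2, Phf20l1, Sertad2, Lpp and Rbks with Babam2 overlapped no CTCF peak in any genotype and were the 5 highest of that kind, whereas Tead1, Rbms1, Dusp6, Bmper and Tenm3 overlapped a CTCF peak in mut.

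The 5 widest peaks each spanned the 5′ end of their gene. The Dusp6 peak spanned 6387 bp, that of Rictor, the defining subunit of mTOR complex 2, 5597 bp, and that of Tnc 5498 bp. The peaks at Erbin, which encodes a scaffold protein of the cell membrane, and at Nr1d1, the circadian nuclear receptor Rev-erb alpha, spanned 5222 and 5020 bp. All 5 were listed in mut and somKO.

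Of 18 gene lists, cell cycle genes, translation factor genes and genes of the mitochondrial ribosome held the largest shares of genes with a CTCF-free promoter peak, against a background of 25.3% of all protein-coding genes. These lists were fixed with earlier results of the data known, and the shares are descriptions. The background includes gene families with almost none of these peaks, such as 1128 olfactory receptor genes. Of all genes with a CpG ratio over 0.8, 46.2% had such a peak. The CpG content of the lists was not examined, so that list and CpG content cannot be told apart. A peak was called lost if no Rad21 peak of the other list overlapped it by 1 bp, and the lost counts of the lists stand beside 9.64% of all CTCF-free promoter peaks lost in mut and 4.12% in somKO, against a background of 28.3% and 7.27% of all autosomal Rad21 wt peaks.

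**Figure D3:**
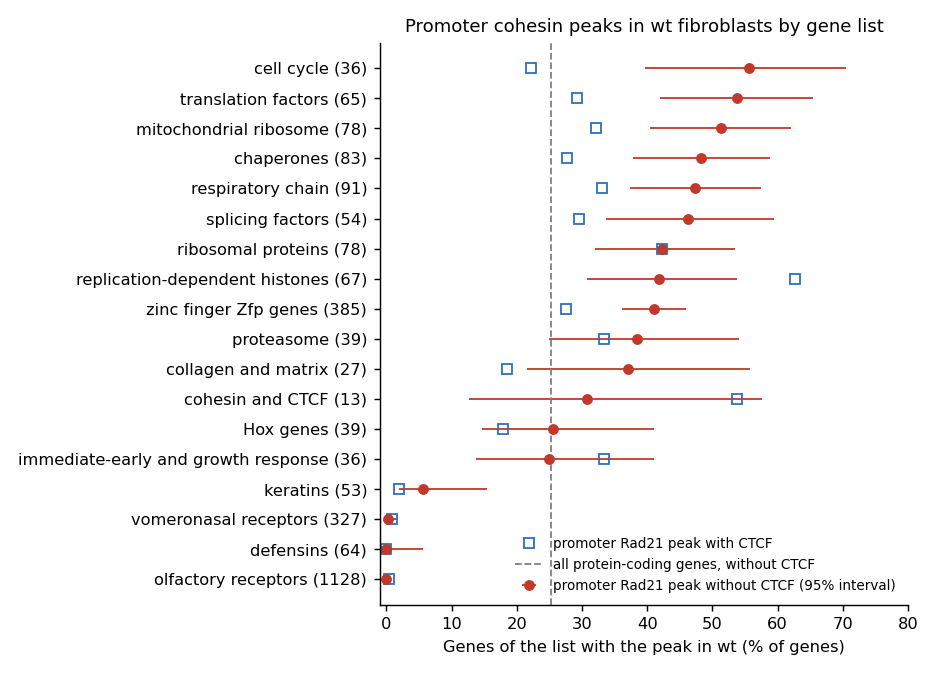
Share of genes (%) with a wt promoter Rad21 peak without CTCF (red, with 95% Wilson intervals) or with CTCF (blue squares) in 18 gene lists, with the number of genes in brackets; the dashed line is the 25.3% of all protein-coding genes with a peak without CTCF. Cell cycle genes stood at 55.6% and olfactory receptors at 0.

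In the cell cycle list, 20 of 36 genes had a peak without CTCF (55.6%, 39.6 to 70.5) and 8 had one with CTCF. The peak shared by Mcm4, a subunit of the replicative helicase, and Prkdc was at percentile 61.5 in wt, 59.9 in mut and 65.2 in somKO. The peak at Mcm3 stood at 53.4, 73.3 and 63.4. Peaks at Ccne1, E2f1, Top2a, Mki67, Cdk1, Plk1 and Aurkb were listed in all 3 genotypes. The 24 peaks of the list were low to middling, with a median percentile of 31.9, and 3 were lost in mut, of which 2 lay at Rb1 and 1 at Aurka with Cstf1. Both Rb1 peaks stood at 47.6 and 44.5 in wt and at 31.0 and 36.4 in somKO. The lost peak at Aurka with Cstf1 was 326 bp wide. Another peak there, of 851 bp, was listed in all 3 genotypes, at 39.2, 43.2 and 62.0.

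Of the genes for translation, 35 of 65 translation factor genes (53.8%), 40 of 78 genes of the mitochondrial ribosome (51.3%) and 33 of 78 ribosomal protein genes (42.3%) had such a peak. The translation factor list, like several others, was drawn by gene name. It includes genes such as Eif2ak3 and Eif4ebp1, which are named after translation factors but do not encode one. As many ribosomal protein genes, 33, had a promoter peak with CTCF. The strongest of the translation factor peaks was at Eif4g2, a relative of the scaffold of cap-dependent initiation, at percentile 69.6 in wt, 66.4 in mut and 60.3 in somKO. Eif3e and Eif3m, subunits of the initiation factor eIF3, were at 69.2 and 67.1 in wt. Of the 42 translation factor peaks, 1 was lost in mut and none in somKO. Of the 36 ribosomal protein peaks none was lost in mut, and 1, at Rplp1, was lost in somKO. Rpl21 stood at 66.0, 63.4 and 76.3, and Rps14 at 55.8, 55.3 and 70.7.

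Other lists of broadly expressed genes gave 40 of 83 chaperone genes (48.2%), 43 of 91 genes of the respiratory chain (47.3%), 25 of 54 splicing factor genes (46.3%) and 15 of 39 proteasome genes (38.5%). Hnrnpu, which encodes a nuclear matrix and RNA-binding protein, stood at 65.1, 68.6 and 71.1, and the splicing factor gene Srsf1 at 48.5, 65.0 and 70.5. None of the 27 splicing factor peaks and none of the 15 proteasome peaks was lost in either list. Of the 46 chaperone peaks, 4 were lost in mut and 3 in somKO, of the 48 respiratory chain peaks 1 and 1, and of the 44 peaks of the mitochondrial ribosome 3 and none. These counts stand beside 9.64% and 4.12% of all CTCF-free promoter peaks, and no difference from those shares was tested. Among the chaperone peaks lost in mut, those at Dnajc15 and Dnajc3 lay on chromosome 14, which is described below. Of the 385 Zfp zinc finger genes, 158 had a peak without CTCF (41.0%, 36.2 to 46.0), and 24 of their 168 peaks were lost in mut and 4 in somKO.

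Replication-dependent histone genes had more promoter peaks with CTCF, at 42 of 67 genes (62.7%), than without, at 28 of 67 (41.8%), and a gene can have both. The histone genes lie in dense clusters in which 1 peak can be near several 5′ ends. Of their 25 peaks without CTCF, 4 were lost in mut and none in somKO. The peak shared by Hist1h2ae and Hist1h2bg stood at 53.4, 15.8 and 60.2, and that at Hist1h1c at 45.3, 61.3 and 54.9.

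Among 13 genes of cohesin, its regulators, CTCF and SmcHD1, 4 had a CTCF-free promoter peak and 7 had one with CTCF. Mau2, the partner of the cohesin loader, shared a peak with Sugp1 at percentile 61.1, 67.1 and 68.5. Wapl, which releases cohesin, stood at 41.1, 51.9 and 35.7, and the Rad21 gene itself at 28.7, 58.9 and 55.7. Esco2, an acetyltransferase of cohesin, stood at 21.8 in wt, was lost in mut and stood at 8.11 in somKO.

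Immediate-early and growth-response genes did not stand above the background, with 9 of 36 genes (13.8 to 41.1%), but their 10 peaks were wide, with a median of 1544 bp. Ier2 stood at 55.3, 61.3 and 70.2, Fosb, a subunit of AP-1, at 53.3, 68.8 and 67.6, and Id1, an inhibitor of basic helix-loop-helix factors, at 54.4, 70.3 and 80.5. Of the collagen and matrix genes, 10 of 27 had such a peak (37.0%, 21.5 to 55.8), with a median width of 2296 bp over 9 peaks. None of the 10 and none of the 9 peaks was lost, beside 9.64% of all CTCF-free promoter peaks in mut, and counts this small do not show a difference from that share. Fn1, which encodes fibronectin, had a peak of 4581 bp at 71.7, 77.4 and 80.7, Col3a1 stood at 63.6, 82.3 and 87.5, and Dcn, which encodes decorin, at 56.4, 51.3 and 64.1.

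Gene families restricted to other tissues held few of these peaks. None of 1128 olfactory receptor genes, 1 of 327 vomeronasal receptor genes, none of 64 defensin genes and 3 of 53 keratin genes had one. The 1 vomeronasal gene, Vmn1r4, shared its peak with Nt5c3. Of the marker lists used to check the cell type, 6 of 18 fibroblast genes had a CTCF-free promoter peak (33.3%, 16.3 to 56.3), against a background of 25.3%. None of 10 blood, 7 muscle, 6 epithelial, 4 liver and 4 pluripotency genes had such a peak, with upper interval limits from 27.8% to 49.0%. Map2 and Syt1 of 8 neuron and glia genes and Kdr of 4 endothelial genes had one. All these intervals hold the background, so that the lists do not settle the cell type, and a promoter peak is no measure of expression. The Hox genes, with 10 of 39 (25.6%), were at the background. At Hoxa3 and Hoxd8, low wt peaks (5.25 to 17.6) overlapped mut and somKO peaks at 83.8 to 96.4, which shows that the overlapping peak can be a much larger one.

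Most of the CTCF-free promoter peaks were listed again in both other genotypes. In mut, 489 of the 5073 CTCF-free promoter peaks were lost (9.64%, 8.86 to 10.5), against a background of 28.3% of all autosomal Rad21 wt peaks. Of the distal peaks without CTCF 53.7% were lost in mut, of the distal peaks with CTCF 17.7% and of the promoter peaks with CTCF 2.94%. In somKO, 209 CTCF-free promoter peaks were lost (4.12%, 3.61 to 4.70), against a background of 7.27%. The shares lost in somKO were 17.3% for distal peaks without CTCF, 2.06% for distal peaks with CTCF and 0.876% for promoter peaks with CTCF. There is 1 list a genotype, so that no test was possible, and the intervals cover counting error only.

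The somKO list is the longer, with 87288 autosomal peaks beside 64520 in mut. With the 3 Rad21 lists cut to equal length by score, 9.54% of the CTCF-free promoter peaks were lost in somKO and 9.17% in mut. The same wt peaks enter both shares, and their difference was not tested. For distal peaks without CTCF the shares under the same cut were 30.2% and 53.0%.

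Both lost shares go with the wt score, and the classes differ in score, so that the shares were also taken within 5 score bins of the wt list, bin 1 holding the lowest scores and bin 5 the highest. In bin 1, 21.2% of CTCF-free promoter peaks (19.1 to 23.4) were lost in mut, beside 65.1% (64.2 to 66.0) of distal peaks without CTCF, 60.5% (58.3 to 62.8) of distal peaks with CTCF and 16.9% (12.6 to 22.2) of promoter peaks with CTCF. In bin 2 the values were 8.64%, 51.3%, 53.3% and 6.96%, and in bin 3 they were 3.08%, 34.9%, 34.1% and 3.29%. In bins 1 to 3 the promoter and distal classes therefore lay further apart than the classes with and without CTCF. In bin 4 the values were 0.588%, 14.3%, 8.63% and 1.11%, and there the distal classes also differed from each other. In somKO, bin 1 gave 10.8% for CTCF-free promoter peaks, 27.4% for distal peaks without CTCF, 18.3% for distal peaks with CTCF and 4.33% for promoter peaks with CTCF, and in bin 4 all 4 classes were at or below 0.196%. CTCF-free promoter peaks were wider than distal ones without and with CTCF. The medians were 378, 334 and 324 bp in bin 1, 598, 455 and 317 bp in bin 2, and 1045, 736 and 373 bp in bin 3. Promoter peaks with CTCF were also wide, with 382, 627 and 936 bp in bins 1 to 3. A wider peak meets another by 1 bp more easily, and the part that width plays in these shares was not tested. With the classes kept and 50% of both Rad21 peaks required to overlap, a choice added after seeing the data, the share lost in mut was 40.8% for CTCF-free promoter peaks, 74.8% for distal peaks without CTCF, 35.0% for distal peaks with CTCF and 23.0% for promoter peaks with CTCF. In somKO it was 45.8%, 58.9%, 31.3% and 25.4%, against 41.4% of all peaks, so that under this rule CTCF-free promoter peaks were lost more often than distal peaks with CTCF in both lists.

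**Figure D4:**
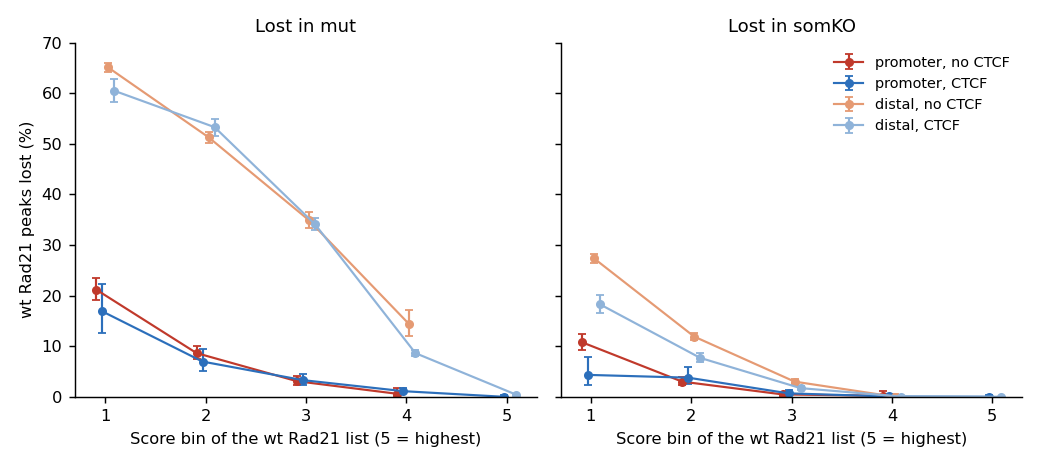
Share of Rad21 wt peaks (%) lost in mut (left) and somKO (right), by score bin of the wt list (5 is the highest) and by class, with 95% Wilson intervals; classes with under 20 peaks in a bin are left out. In mut, the promoter classes ran together below the distal classes, with 21.2% and 16.9% against 65.1% and 60.5% in bin 1.

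The limit of 1 kb lies within a gradient. Among Rad21 wt peaks without CTCF, those 750 to 1000 bp from a gene 5′ end were lost in mut in 16.6% of 560 cases, with a median percentile of 30.7. Those just outside, at 1000 to 1250 bp, were lost in 25.5% of 408 cases, with a median percentile of 25.4. At 250 to 500 bp the share was 8.09%, and at 1500 to 2000 bp it was 43.4%. The peaks nearest the limit were at 5730596B20Rik and Myb on the inner side, both 1000 bp away, and at Lcmt1 and Erf on the outer side, both 1001 bp away. At the limit set by CTCF, 16 members lay 1 to 50 bp from a wt CTCF peak, with a median percentile of 19.9, and 16 promoter peaks overlapped one by 1 to 50 bp, with a median of 20.1.

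Lost and present members differed in CpG content. Of the peaks whose nearest gene 5′ end had a CpG ratio of 0.6 or under, 186 of 824 were lost in mut (22.6%, 19.8 to 25.6), and of those over 0.6, 303 of 4249 were (7.13%, 6.40 to 7.94). In somKO the shares were 8.13% and 3.34%. Within score bin 1 the shares lost in mut were 38.4% and 16.8%, and within bin 2 they were 20.5% and 6.32%. Of the peaks lost in mut 9.61% had 5′ ends on both strands within 1 kb, beside 13.5% of those present, and in somKO the shares were 3.83% and 13.6%. Of the 109 peaks lost in both lists it was 1 peak (0.917%), beside 13.7% of the 4484 present in both. The 109 were 2.15% of the CTCF-free promoter peaks, against a background of 5.88% of all autosomal Rad21 wt peaks lost in both lists. The peaks lost in both had a median percentile of 12.4 in wt and a median width of 309 bp, and those present in both 37.1 and 762 bp. Both comparisons use the same wt list.

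The 5 highest-scoring peaks lost in both lists were at Hs6st3, a heparan sulfate sulfotransferase gene (percentile 60.8 in wt), at Igdcc4 and the calcium channel gene Cacna1i (both 42.8), at Stc1, which encodes the hormone stanniocalcin (41.1), and at Flt3, a receptor tyrosine kinase gene of blood progenitors (38.2). All 5 were absent from the mut and the somKO lists, and at Igdcc4 and Cacna1i a CTCF peak was listed in somKO. Hs6st3 and Stc1 lie on chromosome 14.

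Chromosome 14 stood apart from the other autosomes. Of its 161 CTCF-free promoter peaks, 60 were lost in mut (37.3%), beside 3.76% to 15.0% on the other autosomes, and 23 in somKO (14.3%), beside 1.13% to 5.85%. All Rad21 wt peaks of chromosome 14 gave nearly the same shares, 38.5% in mut and 14.6% in somKO. The lost peaks lay almost wholly beyond 64 Mb, a position taken from an earlier search of these lists. There, 57 of 67 were lost in mut (85.1%, 74.7 to 91.7) and 22 of 67 in somKO (32.8%, 22.8 to 44.7), against 3 and 1 of the 94 before 64 Mb. Of all 892 Rad21 wt peaks beyond 64 Mb, 66.1% were lost in mut and 28.6% in somKO. The distal peaks without CTCF there gave 96.4% and 61.1%, the distal peaks with CTCF 47.3% and 9.45%, and the promoter peaks with CTCF 30.2% and 2.33%. The same stretch held 17.3% of the chromosome 14 peaks of the mut Rad21 list and 27.2% of those of the somKO list, beside 38.9% in wt, and the CTCF lists gave 17.3%, 25.8% and 32.8%. The losses at Rb1, Esco2 and the chaperone genes Dnajc15 and Dnajc3 in mut and those at Hs6st3 and Stc1 belong to this stretch. Without chromosome 14, 8.73% of the CTCF-free promoter peaks were lost in mut and 3.79% in somKO, and the CpG contrast in mut was 22.3% against 6.10%.

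**Figure D5:**
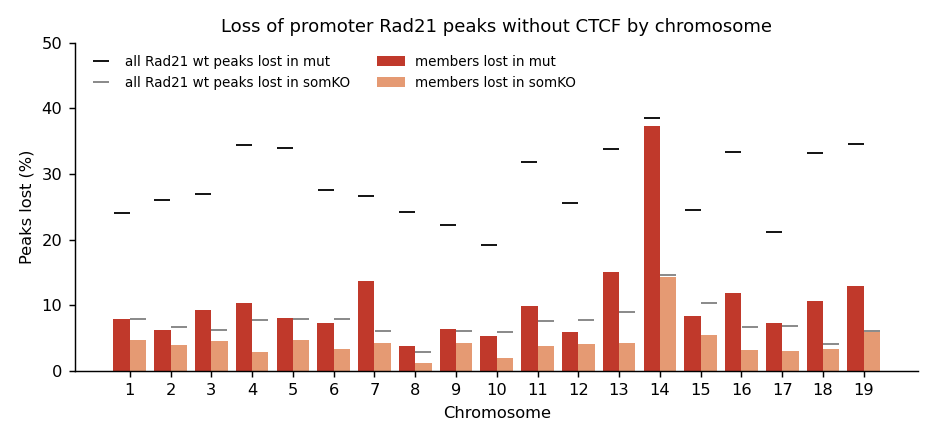
Share of CTCF-free promoter peaks (members, %) lost in mut (red bars) and somKO (orange bars) on each autosome, with the share of all Rad21 wt peaks lost on the same chromosome as dashes (black for mut, grey for somKO). Chromosome 14, with 37.3% and 14.3%, stood above every other autosome.

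For the 4484 members present in all 3 lists, the median percentile was 37.1 in the wt list, 50.9 in the mut list and 56.4 in the somKO list. Because the somKO list is longer, the percentiles were also taken with the lists cut to 64520 peaks each, which left 4204 members in all 3 and gave 37.2, 52.2 and 42.7. At equal length the somKO median thus stood nearer to that of wt than as deposited, and the mut median did not. All Rad21 peaks present in the 3 cut lists stood at 64.6, 67.3 and 69.5. In mut and somKO the highest-scoring overlapping peak was taken, and the members were mostly low in wt. These medians are therefore no measure of a gain in cohesin. Under the same cut, distal peaks without CTCF stood at 31.4, 41.0 and 42.7, promoter peaks with CTCF at 65.7, 70.9 and 67.1 and distal peaks with CTCF at 76.2, 76.6 and 78.1. The overlapping peaks were also wider, with a median of 1088 bp in mut and 1486 bp in somKO. Of them, 16.1% in mut and 27.3% in somKO covered another wt Rad21 peak as well, and 7.05% and 12.3% reached a wt CTCF peak, so that a percentile in those lists can belong to a larger peak. By gene, 4823 of the 5265 genes (91.6%) had any promoter Rad21 peak in mut and 4839 (91.9%) in somKO. The background was 50.2% of all protein-coding genes in mut and 48.6% in somKO. Such a peak can be one with CTCF, which 393 of the 5265 genes also had in wt. The same rule applied within each genotype gave 4984 peaks in mut (7.72% of its autosomal list) and 4812 in somKO (5.51%), beside 7.71% in wt. Of the 5089 genes of the mut set, 1110 (21.8%) had no promoter Rad21 peak in wt, as did 1014 of 5036 (20.1%) in somKO. A share over all genes to set beside these was not taken.

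A CTCF peak was listed in mut at 943 of the peaks that had none in wt (18.6%, 17.5 to 19.7), against a background of 8.61% over all autosomal Rad21 wt peaks without CTCF, and 6.33% of the distal ones. In somKO it was 683 (13.5%, 12.6 to 14.4), against a background of 10.9%, and 10.4% of the distal ones. Both lists had one at 435 of the peaks (8.57%), beside 3.56% of the distal peaks without CTCF. These CTCF peaks were weak, at a median percentile of 11.4 of the mut list and 11.6 of the somKO list, and 3.56% and 5.71% of them also reached a CTCF peak of wt. Peaks of that rank lie near the calling threshold, and 3882 of the members overlapped no CTCF peak in any of the 3 lists. The share with CTCF was highest for the few members next to a wt CTCF peak, with 50.0% in mut and 62.5% in somKO of the 16 at 1 to 50 bp and 38.5% in both of the 13 at 51 to 100 bp. At 101 to 500 bp it was 19.5% and 21.4%, and from 501 bp on it lay between 17.8% and 18.8% in mut. In somKO it was 12.7% at 1001 to 10000 bp and 12.6% at 10001 to 100000 bp. Rad21 chromatin was fixed with the longer crosslinker EGS and formaldehyde and CTCF chromatin with formaldehyde alone, so that a lack of CTCF and a difference in fixation cannot be told apart.

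SmcHD1 peaks of wt overlapped 227 of the CTCF-free promoter peaks (4.47%, 3.94 to 5.08), against a background of 2.24% of all autosomal Rad21 wt peaks. The share was 8.50% for promoter peaks with CTCF, 1.28% for distal peaks without CTCF and 1.76% for distal peaks with CTCF. In mut, where the protein is lost, SmcHD1 peaks overlapped 17 of them (0.335%), of which 8 were among the 227. The background in that control list was 0.151% of all autosomal Rad21 wt peaks, so that the members stood above the background in both SmcHD1 lists. The 5 with the highest Rad21 score were at Sertad2, at Rbks with Babam2, at Resf1, a gene for retroelement silencing, at Flt1, a receptor for vascular endothelial growth factor, and at Tnc. The SmcHD1 peaks there were at percentiles 49.0, 12.4, 58.6, 48.1 and 56.3 of the wt SmcHD1 list, and none of the 5 overlapped an SmcHD1 peak in mut. Their Rad21 peaks were also listed in mut and somKO, with Resf1 at 77.4 in wt, 76.9 in mut and 81.6 in somKO, while Flt1 stood at 76.9, 68.0 and 79.0. These 5 were chosen by a high wt Rad21 score. In score bins 4 and 5, at most 0.588% of all CTCF-free promoter peaks were lost in mut and 0.196% in somKO. Their listing therefore does not bear on SmcHD1, and the fate of the 227 as a set was not examined.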

How the data were processed

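The authors merged the libraries of each group, aligned them with Bowtie2 to mm10 with strain variants masked, and called narrow peaks with MACS2 below a q-value limit, for both alleles at once; the MACS2 version and the use of inputs are not given in the sources used here. The 8 deposited lists give positions and a score, which appears to be 10 times −log10 of the q-value (the lowest is 13 in each list) and was used only to rank peaks within a list, as a percentile of the whole list. Read counts are not part of the lists, so the depth is unknown, and 1 list a group leaves no replicate error and no test. Overlaps of 1 bp were counted in Python 3.11.15 with pandas 2.3.3, and the steps were tested on simulated data. Shares carry 95% Wilson intervals. Genes came from GENCODE M21 and sequence from the RefSeq GRCm38 assembly, of which 3600 of 3600 RefSeq promoters read by coordinates were identical. Named peaks were the 10 highest by score, the 5 highest without CTCF in any list, lost in both lists or with SmcHD1, the 5 widest, those at the 1 kb limit and those of fixed gene lists. The members and lists were chosen with earlier results of these data known. The choices tried were the window, the 5′ ends used, the overlap, the CTCF rule, the score and the list length.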

Additional observations from a re-analysis of the deposited data

Results flagged for a closer look

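SmcHD1 was outside the main measurement, and its wt list overlapped 227 of the CTCF-free promoter peaks, more than the 17 overlapped by the SmcHD1 list of the mutant, which serves as the control for the antibody. The wt list had 5154 autosomal peaks and the mutant list 241, so that the counts reflect the lengths of the lists as well. In both lists the share of these peaks stood above that of all autosomal Rad21 wt peaks.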

How the results depend on the processing

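Each group has 1 list of merged libraries, so that no replicate could be left out. No paired analysis was possible because the lists carry no replicates. Of 74 values under alternatives, 27 stayed within the interval of the reported value (counts within 1.5 times). The number of CTCF-free promoter peaks was 7679 when 50% of both peaks had to overlap, since more peaks then count as free of CTCF, and between 3434 and 6225 otherwise. The share lost in mut, 9.64% as reported, was 8.82% with a window of 500 bp, 14.3% with 2 kb, 11.5% with the 5′ end of any transcript, 34.3% with 50% overlap for Rad21 and CTCF, 11.5% with no CTCF peak in any genotype, 11.5% with a score of at least 50. Of the choices added after seeing the data, it was 40.8% with 50% overlap for Rad21 alone and 8.73% without chromosome 14. It ranged from 3.76% to 37.3% over single autosomes and was 21.2%, 8.64%, 3.08%, 0.588% and 0% in score bins 1 to 5 of the wt list, with 6 peaks in the last. The share lost in somKO, 4.12% as reported, was 5.33% with 2 kb, 4.75% with any transcript, 37.8% with 50% overlap for Rad21 and CTCF, 45.8% with it for Rad21 alone, a choice added after seeing the data, 3.52% with a score of at least 50 and 9.54% with lists of equal length. It ranged from 1.13% to 14.3% over single autosomes and was 10.8%, 3.00%, 0.469%, 0.196% and 0% in the bins. In each of the 8 alternatives applied to all classes, a smaller share of CTCF-free promoter peaks than of distal peaks without CTCF was lost in mut and in somKO. The cause of the other moves was not tested. Sequencing depth is not known, and a peak near the calling threshold can be missed in a list by sampling alone.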

Other observations

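The rule was also applied to chromosome X, which the autosomal set leaves out. It gave 153 of 1852 Rad21 wt peaks (8.26%), with a median width of 565 bp. Of these, 58 were lost in mut (37.9%, 95% Wilson interval 30.6 to 45.8), beside 34.7% of all Rad21 wt peaks of the chromosome, and 12 in somKO (7.84%, 4.54 to 13.2), beside 100 of all 1852. Both shares over all peaks lay within the intervals. An SmcHD1 wt peak overlapped 41 of them (26.8%, 20.4 to 34.3), beside 10.3% of all. The lists hold reads of the active and the inactive X together.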
